A study of Mus musculus with 4 samples.

Results

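Cholesterol is the main sterol of myelin, and oligodendrocytes make most of theirs. The account here covers 34 genes of cholesterol synthesis, sensing, efflux and uptake in primary mouse oligodendrocytes, out of 23435 gene symbols with a usable value in every sample. The genes are known members of the pathway, but they were chosen with earlier results of these data known. No count over them is therefore independent support. Each was found under its symbol in all 4 sample tables (Msmo1 is listed as Sc4mol). The 2 knockout libraries, called lncOL1KO, came from cells labelled lncOL1-/-. They were set against 2 control libraries, called Ctrl, whose shared genotype label lists lncOL1+/+ and lncOL1+/- together, so the genotype of each single control is unknown. lncOL1 is a long noncoding RNA of oligodendrocytes. In both groups primary precursor cells had been differentiated in culture for 1 day with T3, a thyroid hormone, and the strain of both is labelled as a mixed background. No label ties a library to its own animal or culture. The p-values therefore measure the spread between these 4 libraries only, which may be technical.

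Cells build cholesterol from acetyl-CoA through mevalonate, farnesyl diphosphate and squalene to lanosterol, which a chain of sterol enzymes then turns into cholesterol. When sterol in the endoplasmic reticulum is low, the protein Scap carries the transcription factor SREBP2 (gene Srebf2) to the Golgi for cleavage, and the cleaved factor switches on the synthesis genes. Insig proteins hold Scap back when sterol is plentiful. Surplus sterol, as oxysterols, activates the liver X receptors (LXR, genes Nr1h2 and Nr1h3), which switch on genes of cholesterol efflux such as Abca1 and Abcg1. Promoters that answer to SREBP commonly hold a sterol regulatory element near a box for the factor NF-Y.

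The promoters of 4 members are shown because they span the results: Acat2 and Lss are the synthesis genes that passed the test below, Hmgcs1 is the most abundant synthesis gene, and Abca1 stands for efflux. Each is the RefSeq window of 250 bases before to 50 bases after the start site in GRCm38.p6 (mm10), written 5′ to 3′ on the strand of its gene. The windows are chr17:12960676-12960975 on the minus strand for Acat2, chr10:76531355-76531654 on the plus strand for Lss, chr13:119690101-119690400 on the plus strand for Hmgcs1 and chr4:53159846-53160145 on the minus strand for Abca1. Capitals mark a match to the sterol regulatory element TCACNCCAC or to the NF-Y box CCAAT on either strand (ATTGG is the box on the opposite strand).
Acat2: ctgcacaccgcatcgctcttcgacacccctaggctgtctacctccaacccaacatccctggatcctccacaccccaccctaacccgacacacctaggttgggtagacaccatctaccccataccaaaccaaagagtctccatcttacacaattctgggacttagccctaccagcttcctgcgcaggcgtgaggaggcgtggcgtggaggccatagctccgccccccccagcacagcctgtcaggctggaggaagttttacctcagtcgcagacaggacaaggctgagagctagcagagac
Lss: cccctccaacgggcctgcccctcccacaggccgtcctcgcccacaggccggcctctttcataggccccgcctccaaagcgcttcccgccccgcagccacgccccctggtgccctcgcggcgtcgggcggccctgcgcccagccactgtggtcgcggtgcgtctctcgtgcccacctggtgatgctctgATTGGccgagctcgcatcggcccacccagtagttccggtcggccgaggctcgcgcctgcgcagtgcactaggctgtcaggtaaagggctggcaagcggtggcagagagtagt
Hmgcs1: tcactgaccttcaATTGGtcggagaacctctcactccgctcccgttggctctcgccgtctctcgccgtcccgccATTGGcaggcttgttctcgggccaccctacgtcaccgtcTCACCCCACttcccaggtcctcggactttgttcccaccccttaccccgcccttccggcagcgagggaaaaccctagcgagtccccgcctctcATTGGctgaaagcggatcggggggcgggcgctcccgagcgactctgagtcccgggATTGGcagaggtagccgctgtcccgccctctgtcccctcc
Abca1: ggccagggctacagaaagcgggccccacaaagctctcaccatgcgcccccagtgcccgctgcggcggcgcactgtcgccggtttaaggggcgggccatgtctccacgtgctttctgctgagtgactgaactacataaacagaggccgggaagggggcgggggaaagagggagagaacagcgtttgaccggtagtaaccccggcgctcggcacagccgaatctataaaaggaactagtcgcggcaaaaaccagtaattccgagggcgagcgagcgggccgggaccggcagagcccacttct

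Of the 34 members, 28 had a promoter in the RefSeq table. The NF-Y box was found for 14 of the 15 synthesis genes with a promoter (93.3%), all but Acat2, and for 1 of the 5 LXR and efflux genes (20%), which was Mylip. It was found for 3 of 4 sensing genes and for 3 of 4 uptake, lysosome and storage genes. The share was 41.1% over all 27025 genes of the table and 43.7% over the 8534 of them that were tested for expression. Of 32 boxes in the synthesis promoters, 29 lay before the start site, and 23 were on the strand opposite to the gene. The sterol regulatory element in these exact letters was found in Hmgcs1 alone among the 28, beginning 137 bases before the start site, against 1.44% of all genes in the table. A match is a description of the letters, and its absence says only that these letters are not in this window.

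In lncOL1KO cells the mean level of each of the 18 cholesterol synthesis genes was 1.01 to 1.35 times that in Ctrl cells, but the test was passed for Acat2 and Lss only. Levels are in FPKM, fragments scaled to transcript length and to the size of the library. The 4 tested genes of LXR receptors and efflux lay on both sides of 0. Of the 18 synthesis genes, Acat2 and Lss rose, 0 fell and 16 did not pass the test (limma on log2(FPKM + 1), adjusted p under 0.05). Over all 11361 genes tested, 0.528% were called higher, 0.783% lower and 1.31% in either direction. Both lncOL1KO libraries were above both Ctrl libraries for 17 of the 18, the exception being Ebp, against 22.6% of all genes tested. The log2 fold change was above 0 for 18 of 18, against 51.4% of all genes tested. An unadjusted p under 0.05 with a higher level was found for 15 of the 18, against 7.13% of all genes tested. These counts describe the list only. Its genes were read in the same 4 libraries and can shift together, so they are not separate observations. The median log2 fold change was 0.30 over the synthesis genes, 0.06 over the 14 tested members outside synthesis and 0.005 over all genes tested. Each log2 fold change is lncOL1KO minus Ctrl in log2(FPKM + 1), so changes of low genes come out too small.

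Summed over the 18 synthesis genes, the level was 3006 and 2945 FPKM in the lncOL1KO libraries, against 2429 and 2448 FPKM in the Ctrl libraries. This was 0.790% and 0.785% of all FPKM in lncOL1KO, against 0.635% and 0.656% in Ctrl. The 16 members outside synthesis summed to 749 and 764 FPKM in lncOL1KO, against 722 and 690.3 FPKM in Ctrl. Averaged over the 4 libraries, the members ranged from 685 FPKM for Hmgcs1, followed by Fdps and Apoe, to 0.650 FPKM for Mylip, preceded by Nr1h3 and Abcg1.

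**Figure D1:**
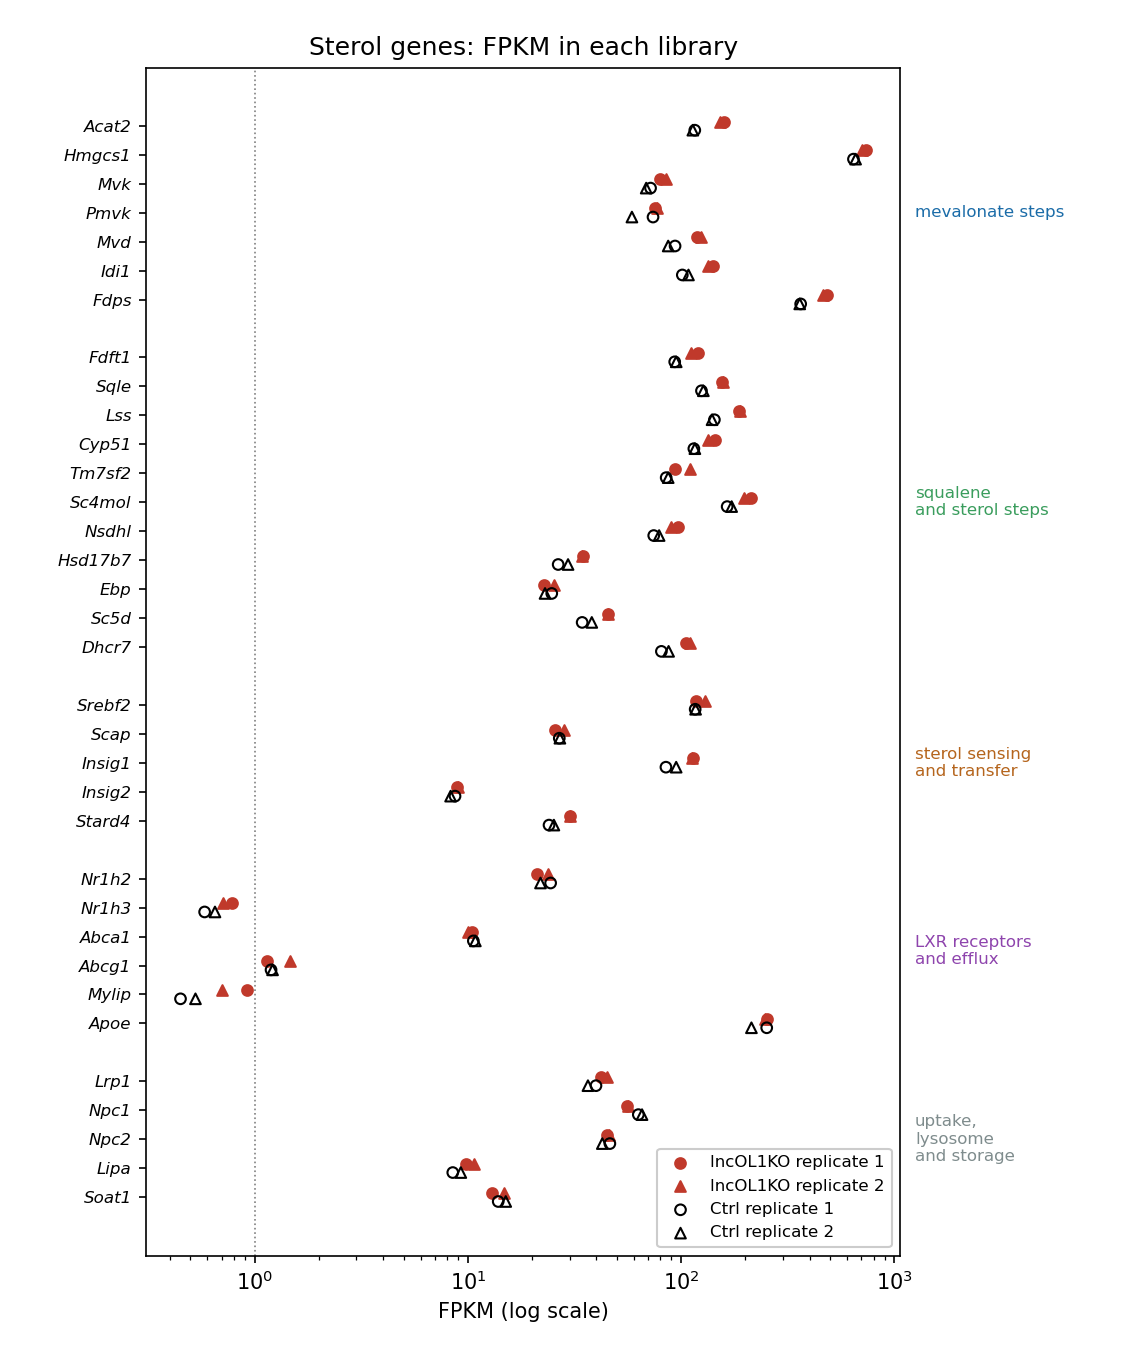
FPKM (log scale) of the 34 members in each library, by role, with lncOL1KO as filled red marks above Ctrl as open black marks in each row. The dotted line is the minimum mean of 1 FPKM. In the synthesis rows the red marks lie right of the black ones except for Ebp, and in 3 of the 6 rows of LXR receptors and efflux the groups overlap.

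The targeted gene was read first. lncOL1 (9630013A20Rik) was at 5.54 and 5.06 FPKM in lncOL1KO, against 28.9 and 34.01 FPKM in Ctrl, and fell by 2.36 on the log2 scale (SE 0.097, limma adjusted p = 0.000389). Summed FPKM was between 372925 and 382573 in each library, and the number of reads behind a value is not given in the files. Markers of differentiating oligodendrocytes were abundant, as the label says, and summed over 8 genes to 6669 and 6939 FPKM in lncOL1KO, against 8473 and 8734 FPKM in Ctrl. Most of that gap was Mbp, a main protein of myelin, at 1501 and 1520 FPKM in lncOL1KO, against 2683 and 2655 FPKM in Ctrl. Of these 8, Mbp fell, 0 rose and 7 did not pass, against 0.783% called lower and 0.528% higher over all genes tested. Mag came nearest of the 7, at 354 and 374 FPKM in lncOL1KO, against 501 and 472 FPKM in Ctrl (log2 fold change -0.42, limma adjusted p = 0.0579). The authors' deposited comparison marks 3 of the 8 as lower and 0 as higher. Both knockout libraries were below both controls for 5 of the 8 and above them for 2, Mog and Olig2, while Sox10 overlapped. Over all genes tested these shares were 20.7% below and 22.6% above. The 4 precursor markers summed to 478 and 481 FPKM in lncOL1KO, against 443 and 434 FPKM in Ctrl, and 0 passed. Of these 4, Gpr17 and Cspg4 were above both controls in both knockout libraries, Pdgfra was below them and Cspg5 overlapped. The call of Mbp was lost whichever library was left out (limma adjusted p = 0.0608 to 0.139). Astrocyte markers were also present, at 529 and 508 FPKM over 7 genes in lncOL1KO, against 565 and 534 FPKM in Ctrl, with 0 of 6 tested called and 208 and 196 FPKM of Gfap in lncOL1KO, against 237 and 211 FPKM in Ctrl. In bulk RNA, fewer cells of a type and less RNA per cell cannot be told apart, and the part of these shifts in the sterol results was not tested.

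The mevalonate steps had the largest median log2 fold change of the role groups. Their difference from the squalene and sterol steps was not tested. Of 7 genes, 1 rose, 0 fell and 6 did not pass, with a median log2 fold change of 0.39 and no overlap between the groups in any of the 7. Acat2 encodes the cytosolic thiolase that joins acetyl-CoA units at the start of the pathway (chromosome 17, 12942890 to 12960747, minus strand, GENCODE on mm10). It had 159 and 152 FPKM in lncOL1KO, against 116 and 114 FPKM in Ctrl. Both knockout values were above both control values, 1.35-fold in the means (log2 fold change 0.43 with SE 0.068, limma adjusted p = 0.0404). Acat3, a near-identical neighbour with which Acat2 may share reads, was listed at 0.191 and 0.198 FPKM in lncOL1KO, against 0.106 and 0.190 FPKM in Ctrl. Hmgcs1, the HMG-CoA synthase of the next step, was the most abundant member, with 734 and 704 FPKM in lncOL1KO, against 643 and 658 FPKM in Ctrl. Its difference was small beside that of Acat2 and did not pass (log2 fold change 0.14 with SE 0.069, limma adjusted p = 0.431).

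Further along, Fdps, which makes farnesyl diphosphate, had 481 and 465 FPKM in lncOL1KO, against 364 and 359.98 FPKM in Ctrl. The gap between groups was several times the gap within them, but the test was narrowly missed (log2 fold change 0.39 with SE 0.067, limma adjusted p = 0.0568). Idi1, the isomerase that supplies the reactive isoprene unit, had 141 and 133 FPKM in lncOL1KO, against 101 and 108 FPKM in Ctrl (log2 fold change 0.39, limma adjusted p = 0.0723). Mvd, the decarboxylase before it, had 118 and 124 FPKM in lncOL1KO, against 93.7 and 87.0 FPKM in Ctrl (log2 fold change 0.42, limma adjusted p = 0.0581). Mvk, the first kinase of the pathway, had 79.8 and 85.1 FPKM in lncOL1KO, against 71.9 and 68.6 FPKM in Ctrl (log2 fold change 0.23, limma adjusted p = 0.233). Its values did not overlap either. Pmvk, the kinase after it, had the largest SE of the 7 on the log2 scale, with 75.4 and 77.5 FPKM in lncOL1KO, against 73.8 and 58.8 FPKM in Ctrl (log2 fold change 0.21 with SE 0.111, limma adjusted p = 0.485). Exon bases are shared with another annotated gene for Hmgcs1 (557, opposite strand), Idi1 (323, opposite strand) and Fdps (1124, same strand).

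Of the 11 genes of the squalene and sterol steps, 1 rose, 0 fell and 10 did not pass, with a median log2 fold change of 0.30. Lss encodes lanosterol synthase, which closes the sterol rings (chromosome 10, 76531588 to 76557138, plus strand, GENCODE on mm10). It had 188 FPKM in both lncOL1KO libraries, against 143 and 139.7 FPKM in Ctrl, a 1.33-fold difference (log2 fold change 0.41 with SE 0.066, limma adjusted p = 0.0456). The antisense gene 4930483K19Rik shares 381 exon bases with Lss, and its own level was 10.4 and 10.6 FPKM in lncOL1KO, against 7.88 and 8.41 FPKM in Ctrl. No source used here says whether the counting used strand, and without strand the reads of both genes cannot be told apart.

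Sqle, the squalene epoxidase that feeds Lss, had 155 and 157 FPKM in lncOL1KO, against 125 and 127 FPKM in Ctrl (log2 fold change 0.31, limma adjusted p = 0.0973). Fdft1, squalene synthase, had 120.3 and 111 FPKM in lncOL1KO, against 93.3 and 94.9 FPKM in Ctrl (log2 fold change 0.30, limma adjusted p = 0.132). Neither passed, although the groups did not overlap for either. Fdft1 shares 774 exon bases with Ctsb on the other strand, a cathepsin gene that was at 75.5 and 76.3 FPKM in lncOL1KO, against 70.03 and 72.03 FPKM in Ctrl.

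After lanosterol, Cyp51, the demethylase that starts the trimming of the molecule, had 144 and 134 FPKM in lncOL1KO, against 115 and 116 FPKM in Ctrl (log2 fold change 0.26, limma adjusted p = 0.167). Sc4mol, the methylsterol oxidase, had 212 and 198 FPKM in lncOL1KO, against 164 and 173 FPKM in Ctrl (log2 fold change 0.28, limma adjusted p = 0.159). Dhcr7, the reductase that yields cholesterol from its dehydro precursor, had 106 and 109.9 FPKM in lncOL1KO, against 80.8 and 87.4 FPKM in Ctrl (log2 fold change 0.36, limma adjusted p = 0.0900). In all 3 the lower knockout library stood above the higher control library. Cyp51 shares 166 exon bases with Akap9 on the other strand.

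The other enzymes of that stretch gave values of like size. Nsdhl, a sterol dehydrogenase, had 97.2 and 89.5 FPKM in lncOL1KO, against 74.4 and 78.9 FPKM in Ctrl (log2 fold change 0.28, limma adjusted p = 0.171). Hsd17b7, a keto reductase, had 34.6 and 34.5 FPKM in lncOL1KO, against 26.5 and 29.5 FPKM in Ctrl (log2 fold change 0.30, limma adjusted p = 0.157). The groups did not overlap for either gene. Sc5d, a desaturase, had 45.6 and 45.3 FPKM in lncOL1KO, against 34.4 and 38.1 FPKM in Ctrl (log2 fold change 0.32, limma adjusted p = 0.127). Tm7sf2, a sterol reductase that shares 14 exon bases with Vps51, had 93.9 and 110.5 FPKM in lncOL1KO, against 85.1 and 87.0 FPKM in Ctrl (log2 fold change 0.24, limma adjusted p = 0.314). The 2 knockout libraries were nearly equal for Sc5d and well apart for Tm7sf2.

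The exception was Ebp, the sterol isomerase, which is singled out here after its values were seen. It had 22.8 and 25.3 FPKM in lncOL1KO, against 24.7 and 23.0 FPKM in Ctrl, so that the groups overlapped. Its log2 fold change was 0.01 (SE 0.081, limma adjusted p = 0.979), and the sign turned when lncOL1KO replicate 2 or Ctrl replicate 2 was left out. Ebp and Hsd17b7 were the least abundant of the 18 synthesis genes, at means of 23.97 and 31.3 FPKM over the 4 libraries.

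**Figure D2:**
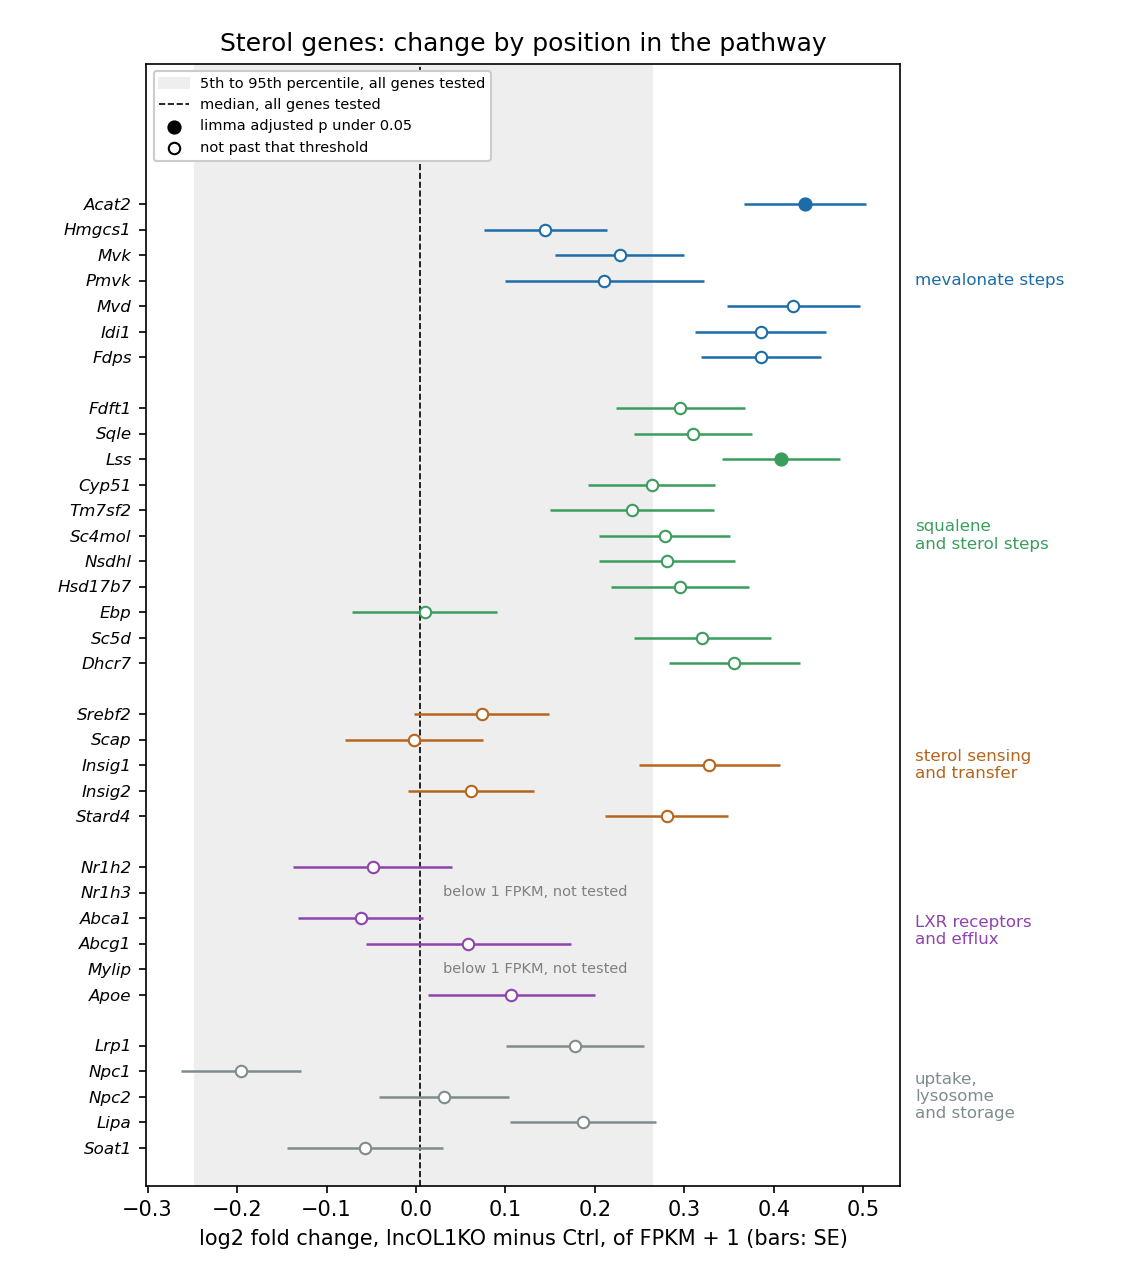
Log2 fold change of FPKM + 1, lncOL1KO minus Ctrl, for each member in pathway order, with its SE as a bar. Filled points passed the limma test, and the grey band holds the 5th to 95th percentile of all genes tested. Mevalonate, squalene and sterol genes lie to the right of the dashed median, Ebp close to it. Of these, Hmgcs1, Mvk, Pmvk, Tm7sf2 and Ebp lie inside the band, and so does Cyp51, at its edge. Of the other groups, only Insig1 and Stard4 lie beyond the band.

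Of the 5 members of sterol sensing, all tested, 0 passed, with a median log2 fold change of 0.07. Insig1, the Insig gene that SREBP itself is known to switch on, had 113 and 112 FPKM in lncOL1KO, against 84.9 and 94.8 FPKM in Ctrl (log2 fold change 0.33 with SE 0.078, limma adjusted p = 0.127). Insig2, its relative, had 8.86 and 8.97 FPKM in lncOL1KO, against 8.71 and 8.30 FPKM in Ctrl (log2 fold change 0.06, limma adjusted p = 0.801). Stard4, which carries sterol between membranes, had 30.1 and 30.2 FPKM in lncOL1KO, against 24.02 and 25.3 FPKM in Ctrl (log2 fold change 0.28 with SE 0.069, limma adjusted p = 0.132). Both knockout values were above both controls for 4 of the 5, Insig1, Insig2, Stard4 and Srebf2, against 22.6% of all genes tested. The difference between Insig1 and Insig2 was not tested.

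The 2 components upstream were nearly level. Srebf2 had 117 and 129 FPKM in lncOL1KO, against 116 and 117 FPKM in Ctrl, and both knockout values were above both controls, the first only just (log2 fold change 0.07 with SE 0.075, limma adjusted p = 0.762). Scap had 25.5 and 28.3 FPKM in lncOL1KO, against 26.8 and 27.0 FPKM in Ctrl, with the control values inside the knockout range (log2 fold change -0.0025, limma adjusted p = 0.993), and its log2 fold change was 0.01 after quantile normalization. Scap shares 785 exon bases with another annotated gene on the other strand. The activity of SREBP2 depends on cleavage of its protein, which was not measured.

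The LXR receptors and efflux genes showed no shared direction. Of 6 members, 4 were tested and 0 passed, with a median log2 fold change of 0.005 over the 4. Both knockout libraries were above both controls for 0 of the 4 and below them for 1, Abca1, against 22.6% and 20.7% of all genes tested. Abca1, the main cholesterol exporter to apolipoproteins, had 10.5 and 10.02 FPKM in lncOL1KO, against 10.6 and 10.8 FPKM in Ctrl (log2 fold change -0.06 with SE 0.070, limma adjusted p = 0.793). Abcg1, which exports to lipoprotein particles, had 1.14 and 1.46 FPKM in lncOL1KO, against 1.19 and 1.21 FPKM in Ctrl (log2 fold change 0.06, limma adjusted p = 0.897). Nr1h2, the LXR found in most tissues, had 21.1 and 23.6 FPKM in lncOL1KO, against 24.4 and 21.9 FPKM in Ctrl (log2 fold change -0.05, limma adjusted p = 0.888). The 2 groups overlapped for Abcg1 and Nr1h2.

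Nr1h3 and Mylip did not reach the mean of 1 FPKM and were not tested. Nr1h3, the LXR known from liver and macrophages, was at 0.785 and 0.708 FPKM in lncOL1KO, against 0.583 and 0.652 FPKM in Ctrl. Mylip, an LXR target that encodes a ubiquitin ligase for lipoprotein receptors, was at 0.924 and 0.700 FPKM in lncOL1KO, against 0.449 and 0.528 FPKM in Ctrl. Both were higher in each knockout library than in each control, at levels where the number of reads is small. Abcg1 was the member just above the minimum, at a mean of 1.25 FPKM.

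Apoe, the apolipoprotein of the brain that astrocytes and microglia are known to secrete, was the most abundant member outside synthesis. It had 253 and 246 FPKM in lncOL1KO, against 252 and 214 FPKM in Ctrl (log2 fold change 0.11 with SE 0.093, limma adjusted p = 0.710). The control libraries differed more from each other than the group means did, and without Ctrl replicate 2 its log2 fold change was -0.01. Markers of microglia and macrophages, cells known to express Apoe and Nr1h3, were low but mostly higher in the knockout. Their 13 genes summed to 37.6 and 42.5 FPKM in lncOL1KO, against 19.7 and 21.8 FPKM in Ctrl. Of the 8 tested, 3 rose (Tyrobp, Laptm5 and Fcrls), against 0.528% called higher over all genes tested. Both knockout libraries were above both controls for all 8, against 22.6% of all genes tested. The other 5 were below the minimum, and of these Cd68 and Trem2 overlapped. Trem2 was at most 0.182 FPKM in any library. The 7 fibroblast and mural markers summed to 18.8 and 18.4 FPKM in lncOL1KO, against 9.74 and 10.5 FPKM in Ctrl. Of these, 2 were tested and both rose, Acta2 and Tagln, against 0.528% called higher over all genes tested. The other 5, Col1a1, Col1a2, Dcn, Lum and Pdgfrb, went the other way. Each was lower in both knockout libraries than in both controls, against 20.7% of all genes tested. All 5 were at levels below 1 FPKM and untested, and Lum was at 0 in both knockout libraries. Each of the 5 calls of Tyrobp, Laptm5, Fcrls, Acta2 and Tagln was lost with at least 1 library left out (highest limma adjusted p = 0.0882 to 0.327). The part of these cells, or of astrocytes, in the levels of Apoe, Nr1h3 and Mylip was not tested.

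**Figure D3:**
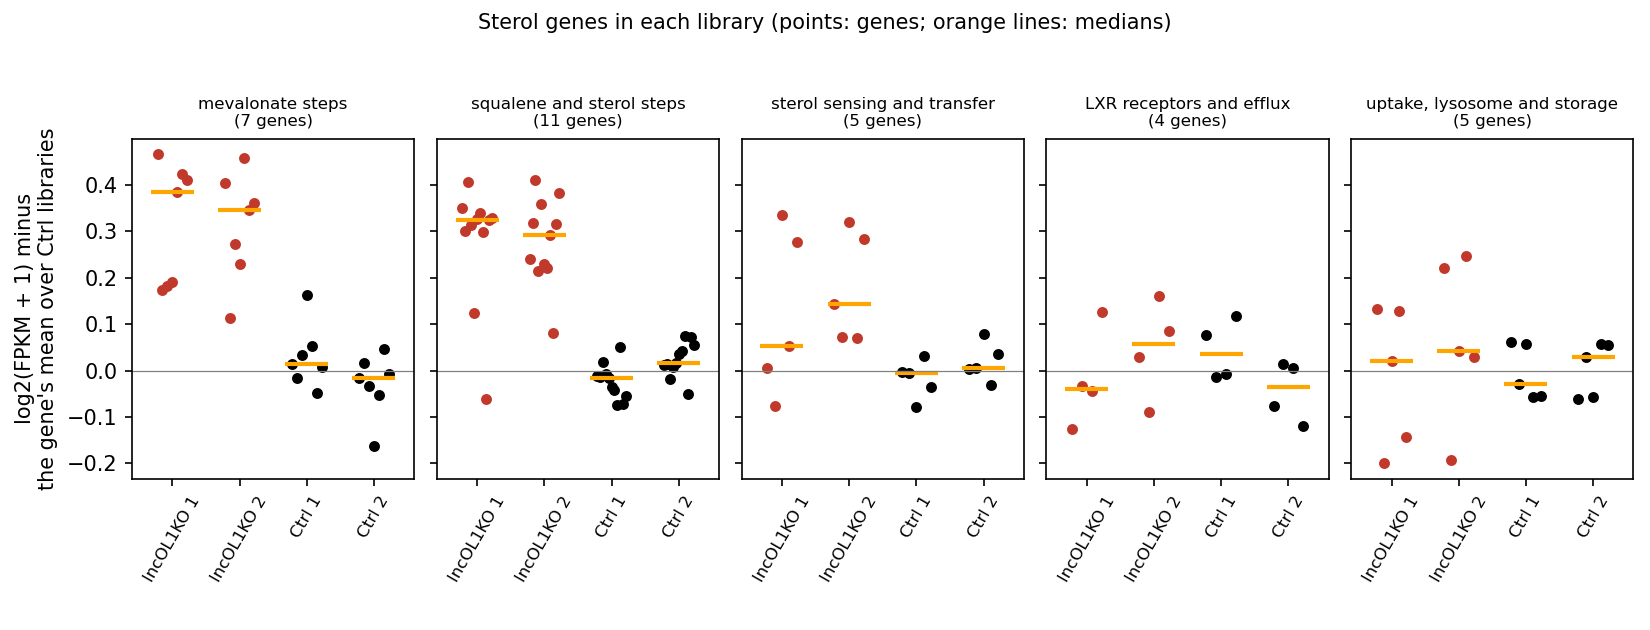
Log2(FPKM + 1) of each tested member minus its mean over the Ctrl libraries, by library and role, with knockout points in red, control points in black and medians as orange lines. For the mevalonate steps the medians are 0.39 and 0.35 in lncOL1KO, against 0.01 and -0.01 in Ctrl, and for LXR receptors and efflux they are -0.04 and 0.06 in lncOL1KO, against 0.03 and -0.03 in Ctrl.

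Genes of uptake, lysosomal release and storage were mixed. Of 5 tested members 0 passed, with a median log2 fold change of 0.03. Npc1, which moves cholesterol out of the lysosome, had 55.8 and 56.1 FPKM in lncOL1KO, against 63.0 and 65.6 FPKM in Ctrl. It had the most negative log2 fold change of the members, and it was the 1 of 32 with a lower level and an unadjusted p under 0.05, against 6.58% of all genes tested (log2 fold change -0.20 with SE 0.067, limma adjusted p = 0.264). Npc2, its soluble partner, had 45.1 and 45.8 FPKM in lncOL1KO, against 46.3 and 42.7 FPKM in Ctrl (log2 fold change 0.03, limma adjusted p = 0.916). Npc1 shares exon bases with Rmc1 on the other strand, 192 in number.

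Lrp1, a large endocytic receptor of apolipoproteins, had 42.0 and 44.7 FPKM in lncOL1KO, against 39.9 and 36.6 FPKM in Ctrl (log2 fold change 0.18, limma adjusted p = 0.385). Lipa, the lysosomal acid lipase that frees cholesterol from its esters, had 9.79 and 10.7 FPKM in lncOL1KO, against 8.497 and 9.27 FPKM in Ctrl (log2 fold change 0.19, limma adjusted p = 0.385). Soat1, which esterifies cholesterol for storage, had 12.99 and 14.8 FPKM in lncOL1KO, against 13.9 and 15.1 FPKM in Ctrl (log2 fold change -0.06, limma adjusted p = 0.862). Both knockout libraries were above both controls for Lrp1 and Lipa and below them for Npc1, against 22.6% and 20.7% of all genes tested. The groups overlapped for Soat1 and Npc2.

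The authors' deposited table, a Cuffdiff comparison with 1 pooled FPKM per group, marks more of the members. It marks 12 of the 18 synthesis genes as higher in the knockout and 0 as lower, and 1.74% of its 12519 rated genes as higher and 4.04% as lower. Outside synthesis the authors' deposited table marks Insig1 and Stard4 as higher (q = 0.00332 and 0.0358) and Npc1 as lower (log2 fold change -0.27, q = 0.00331), and none of the 6 LXR and efflux genes. For Acat2 the authors' deposited table gives a log2 fold change of 0.41 with q = 8.8e-09, at pooled levels of 280.0 FPKM in knockout and 210.3 FPKM in control, well above the level of Acat2 in each library's own table. For Lss it gives 0.33 with q = 2.13e-05, for Idi1 0.38 with q = 2.44e-07 and for Mvd 0.33 with q = 0.000122, all in the authors' deposited table. Ebp, Srebf2 and Npc2 have the opposite sign there to the values above. Their log2 fold changes are -0.09, -0.01 and -0.05 (authors' deposited table, q = 0.871, 0.989 and 0.920).

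Calls of single members depended on the settings. The calls of Acat2 and Lss were lost whichever library was left out (adjusted p = 0.205 to 0.244 for Acat2 and 0.211 to 0.289 for Lss), which leaves 1 sample in a group and fewer degrees of freedom, while their log2 fold changes kept within 0.40 to 0.47 and 0.39 to 0.43. Both calls were also lost with no filter on low values and with no expression trend in the fit. Fdps and Mvd passed beside them with a pseudocount of 0.1, a minimum mean of 5 FPKM, TPM scaling or quantile normalization.

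A further list of 39 genes of sterol handling was read for comparison, covering regulators of SREBP, other receptors, carriers, oxysterol enzymes and exporters. Of 32 tested genes 1 fell, 0 rose and 31 did not pass, against 0.783% called lower and 0.528% higher over all genes tested. The median log2 fold change of the 32 was 0.01 (-0.0088 with a minimum mean of 5 FPKM). An unadjusted limma p under 0.05 was found for 5 on the higher side and 3 on the lower side. Over all genes tested these shares were 7.13% and 6.58%. Cyp46a1, the hydroxylase that turns brain cholesterol into an oxysterol able to leave the brain, had 7.27 and 8.78 FPKM in lncOL1KO, against 12.1 and 13.1 FPKM in Ctrl (log2 fold change -0.60 with SE 0.099, limma adjusted p = 0.0489). Both knockout values lay below both controls. Cyp46a1 is known mainly from neurons. The 6 neuron markers summed to 29.0 and 30.5 FPKM in lncOL1KO, against 30.3 and 29.5 FPKM in Ctrl, most of it Tubb3, at 27.1 and 28.2 FPKM in lncOL1KO, against 27.8 and 27.7 FPKM in Ctrl. Tubb3 and Snap25 were tested and 0 passed, while Rbfox3, Syt1, Slc17a6 and Gad1 were below 1 FPKM in every library. Of these, Syt1 was lower in both knockout libraries, at 0.467 and 0.426 FPKM in lncOL1KO, against 0.695 and 0.538 FPKM in Ctrl, and so was Gad1, at 0.0172 and 0.126 FPKM in lncOL1KO, against 0.162 and 0.164 FPKM in Ctrl. The part of neurons in the level of Cyp46a1 was not tested.

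The next in order of p did not pass. Scarb1, a receptor for high-density lipoprotein, had 23.2 and 25.95 FPKM in lncOL1KO, against 18.8 and 17.8 FPKM in Ctrl (log2 fold change 0.40, limma adjusted p = 0.0826). Abca2, a lysosomal transporter abundant in oligodendrocytes, had 45.7 and 50.5 FPKM in lncOL1KO, against 62.6 and 62.5 FPKM in Ctrl (log2 fold change -0.37, limma adjusted p = 0.0857). In both genes the groups did not overlap. Lcat, which esterifies cholesterol on lipoproteins, had 8.16 and 8.32 FPKM in lncOL1KO, against 10.3 and 9.34 FPKM in Ctrl (log2 fold change -0.23, limma adjusted p = 0.262). The authors' deposited table rates 33 of the 39, and of these it marks Cyp46a1 and Abca2 as lower and 0 as higher. The call of Cyp46a1 did not survive the removal of any 1 library (limma adjusted p = 0.149 to 0.292), and it was also lost with no filter on low values, with TPM scaling and with no expression trend.

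**Figure D4:**
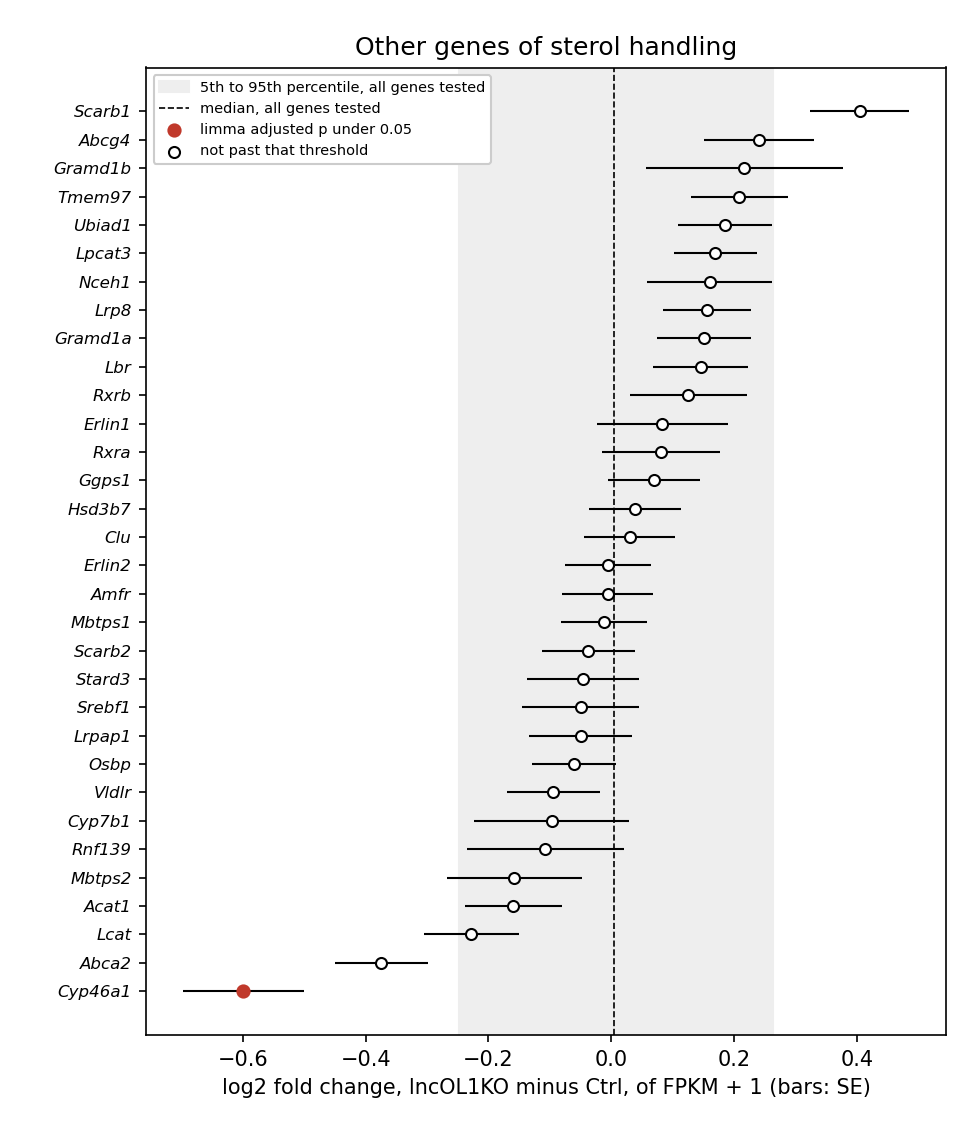
Log2 fold change of FPKM + 1, lncOL1KO minus Ctrl, with SE, for the 32 tested genes of the further sterol list, in order of size. Cyp46a1, in red, passed the limma test, and most others lie inside the grey band of the 5th to 95th percentile of all genes tested.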

How the data were processed

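RNA of 2 lncOL1KO and 2 Ctrl libraries was analysed from values that the authors deposited. Per the labels' protocols, Trizol served for total RNA and the TruSeq kit of Illumina for the libraries. Per the submitters' processing notes, the tools were CASAVA, TopHat, Cufflinks and Cuffdiff and the build mm10, with no versions or roles; no source used here gives the annotation or the strand setting. FPKM per gene and library were computed by the authors and deposited in 1 table per sample, per the file headers. The authors' deposited comparison table holds a pooled FPKM per group, a log2 fold change (a score column here, since groups at 0 carry an overflow value), p-values and q-values, per the file headers.

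Rows of the same symbol were summed (258 symbols), 9 symbols with a failed status were dropped, and testing was limited to 11361 genes averaging 1 FPKM or more over the 4 libraries. The linear model of limma 3.58.1 (R 4.3.3), with variances shrunk towards a trend on expression, was run on log2(FPKM + 1) of all 4 libraries with no covariate, and p-values were adjusted by Benjamini-Hochberg over all genes tested. The fit has 2 residual and 4.6 prior degrees of freedom. It was also run on simulated data, with each gene drawn separately and with changes larger than those of the members. That run does not show how calls behave at the members' sizes or when many genes shift together. From the steps of 561 low genes, relative depth was 0.936, 1.15 and 1.19 in lncOL1KO replicates 1 and 2 and Ctrl replicate 2 against Ctrl replicate 1. The members, role groups, marker lists and motifs were chosen with earlier results of these data known, so no count over them is independent support, and other pathway genes, 1 of them first held in the further sterol list, are not reported here. Values per library are given for called members and, in each role group, for the 4 most abundant and the 2 with the smallest p, and further members are given as well. Of the further sterol genes, those called and the 4 with the smallest p are named. Promoters are from the RefSeq table of GRCm38.p6, gene spans from GENCODE M21 on the same build. The alternatives were other pseudocounts, filters and scalings, no trend, a replicate block and each library left out.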

Additional observations from a re-analysis of the deposited data

How the results depend on the processing

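Direction was steadier than the calls. Among 11361 genes, 60 were called higher and 89 lower, and these counts were 1 and 3 with no filter on low values and 11 to 16 and 5 to 26 with each library left out. Members called higher numbered 2, against 4 with a pseudocount of 0.1, a minimum mean of 5 FPKM, TPM scaling or quantile normalization, 0 with no filter or no expression trend, and 0 with each library left out, and 0 were called lower in any setting. Of the further sterol genes 0 were called higher and 1 lower, against 1 higher with a minimum of 5, and against 0 lower with no filter, TPM scaling, no trend or any library left out. The median log2 fold change of the mevalonate steps was 0.39 (0.35 after quantile normalization, 0.35 to 0.39 with a library left out), and that of the squalene and sterol steps 0.30 (0.25 to 0.32 with a library left out). It was 0.07 for sensing (0.053 to 0.14), 0.03 for uptake, lysosome and storage (-0.0021 to 0.089) and 0.012 for the further genes (0.013 to 0.036), with a library left out in each case. For LXR and efflux it was 0.005, against 0.082 with no filter and 0.092 with TPM scaling, settings that bring in Nr1h3 and Mylip, and -0.04 to 0.06 with a library left out. For the further genes it was 0.039 with no filter, 0.029 with TPM scaling and -0.0088 with a minimum of 5. Sign turns of members not called were seen for Ebp, Scap, Nr1h2, Abcg1, Apoe, Npc2 and Soat1 with a library left out, and for Scap after quantile normalization. The fall of lncOL1 was called in every setting run (adjusted p up to 0.0229).

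With the replicate number as a block, 158 genes were called higher and 183 lower, 7 members higher (Acat2, Mvd, Idi1, Fdps, Sqle, Lss and Dhcr7) and of the further sterol genes 1 higher and 2 lower. No label says whether samples with the same replicate number belong together. The differences of replicate 1 minus replicate 2 correlated across genes at -0.052 between the groups. A single correlation between 2 sets of differences cannot settle whether the samples were paired. The files give no read counts, so what depth limits could not be set as an interval, and values under 1 FPKM are the least certain.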
